A study of Homo sapiens with 14 samples.

Results

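PRRG4, GALNT7, GPR137B, KLHL15, ZMYND11, CHIC1 and RAPGEF6 are 7 genes whose transcripts were lower in HEK293T cells given an abasic form of miR-34a than in cells given the unmodified microRNA. They were picked on that difference, as 7 of the 8 largest falls among genes with at least 5 CPM on average (CPM being counts scaled to library size), an adjusted p under 0.05 and no overlap between the libraries of the 2 groups. The other gene of those 8 was LRGUK. The count table holds 63140 genes, 18321 had enough counts to be tested, and 98 of these were called lower with the abasic form. The difference between the microRNA forms is therefore a description here and is given no test, while the changes from control were not used in the choice.

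HEK293T is an established line derived from human embryonic kidney and modified to express the large T antigen of SV40. All 14 libraries were made with the TruSeq RNA v2 kit from total RNA of this line, taken 24 h after transfection with a short RNA duplex. The control group (n = 5) received AllStars, a negative control siRNA. The miR-34a-WT group (n = 5) received a duplex with the unmodified guide, and the miR-34a-RS group (n = 4, replicates 1, 2, 3 and 5) received one whose guide has rSpacer, a sugar-phosphate unit with no base, at residues 13 and 14. The cells thus took up a synthetic duplex at a single time point, and whether replicates are separate cultures is not stated, so the p-values measure only the spread between these libraries. Totals ranged from 22242203 to 36255297 counts per library. All 10 transcripts listed as known in the line passed the count filter, with summed levels of 626 to 654 CPM in control, 558 to 605 CPM for miR-34a-WT and 568 to 592 CPM for miR-34a-RS, so that both microRNA groups lay below all control libraries. PAX2 was the weakest at 1.77 CPM on average. Of 8 fibroblast markers 5 passed, with summed levels of 46.8 to 58.5 CPM in control, 43.0 to 47.9 CPM with miR-34a-WT and 44.8 to 49.5 CPM with miR-34a-RS. The part of these markers in the results was not tested.

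A microRNA guides an Argonaute protein to messenger RNAs, mostly through pairing of its seed, the bases near its 5′ end, with a match in the 3′ untranslated region (3′ UTR). The bound Argonaute recruits TNRC6 proteins and the deadenylation machinery, so a direct target usually loses transcript. Bases further along the guide, around positions 13 to 16, can add supplementary pairing, and the abasic guide cannot form base pairs at 2 of these. The 7 genes differ in what they are known to do. GALNT7 encodes a Golgi enzyme of mucin-type O-glycosylation, ZMYND11 a chromatin reader of methylated histone H3.3, KLHL15 an adaptor of the CUL3 ubiquitin ligase, CHIC1 a membrane-associated protein with a cysteine-rich hydrophobic stretch, GPR137B a lysosomal membrane protein, RAPGEF6 an exchange factor for Rap GTPases, and PRRG4 a transmembrane protein with a vitamin K-dependent Gla domain.

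The guide is shown first because each seed match below is read against it. It is the RefSeq sequence of hsa-miR-34a-5p (GRCh38.p14, chr1:9151735-9151756, minus strand), written 5′ to 3′, with positions counted from its 5′ end. Capitals mark the seed, positions 2 to 8, in the first line and the 2 residues that are abasic in miR-34a-RS in the second.
miR-34a-5p, seed: uGGCAGUGucuuagcugguugu
miR-34a-5p, residues 13 and 14: uggcagugucuuAGcugguugu

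Matches were searched in the longest annotated 3′ UTR of each gene, on the transcript strand. They were CACTGCCA (8mer), CACTGCC without the final A (7mer-m8), ACTGCCA without the first C (7mer-A1) and ACTGCC alone (6mer), each counted once at its longest form. Of the 7 genes 1 had an 8mer as its best match, 2 had a 7mer-m8, 1 had a 6mer and 3 had none. Over the 13651 tested genes with a 3′ UTR, 6.76% had an 8mer as best match, 13.1% a 7mer-m8, 12.3% a 6mer and 61.1% none. The 6 matches of GALNT7, ZMYND11 and PRRG4 are printed because these are the members with a 7- or 8-base match. Each line is 30 bases of GRCh38 transcript sequence from GENCODE 29, 5′ to 3′, ending at the match, which is in capitals.
GALNT7 8mer, chr4:173322154-173322183, plus strand: ttaattttacatctttttgaagCACTGCCA
GALNT7 7mer-A1, chr4:173323210-173323239, plus strand: acaatgaaaggaattcacaaactACTGCCA
ZMYND11 7mer-m8, chr10:253319-253348, plus strand: ccttcccttcccacatatcatctCACTGCC
ZMYND11 7mer-A1, chr10:253950-253979, plus strand: tgacacaagttaattgacaaactACTGCCA
PRRG4 7mer-m8, chr11:32855952-32855981, plus strand: cccatgtcatgcctataaaattaCACTGCC
PRRG4 7mer-A1, chr11:32855593-32855622, plus strand: aagtaagtccttaatcattacagACTGCCA

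Upstream of none of these 8mer or 7mer-m8 matches was AGCT, the word that pairs with guide positions 13 to 16, found with 1 to 15 bases between the partners of positions 8 and 13. Among all 2707 tested genes with an 8mer or 7mer-m8, 9.97% had that word in that window. The single 6mer of RAPGEF6 is the last 6 bases of the 30-base window chr5:131427013-131427042, read on the minus strand, and begins at base 248 of a 3′ UTR of 3345 bases. GPR137B, KLHL15 and CHIC1 had no guide match in the longest 3′ UTR, and GPR137B had a 7mer-A1 in the 3′ UTR of another annotated transcript. The natural partner strand, miR-34a-3p, has its own seed, and its matches GCTGATTA (8mer), GCTGATT (7mer-m8), CTGATTA (7mer-A1) and CTGATT (6mer) were searched in the same way. CHIC1 carried 4 of them, its best an 8mer, a form that 2.13% of tested genes had as their best. PRRG4 and RAPGEF6 had a 7mer-A1 and KLHL15 a 6mer, while GALNT7, ZMYND11 and GPR137B had none. The passenger strand of the transfected duplexes is not given in the sources used here, so these matches refer to the natural strand only.

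**Figure D1:**
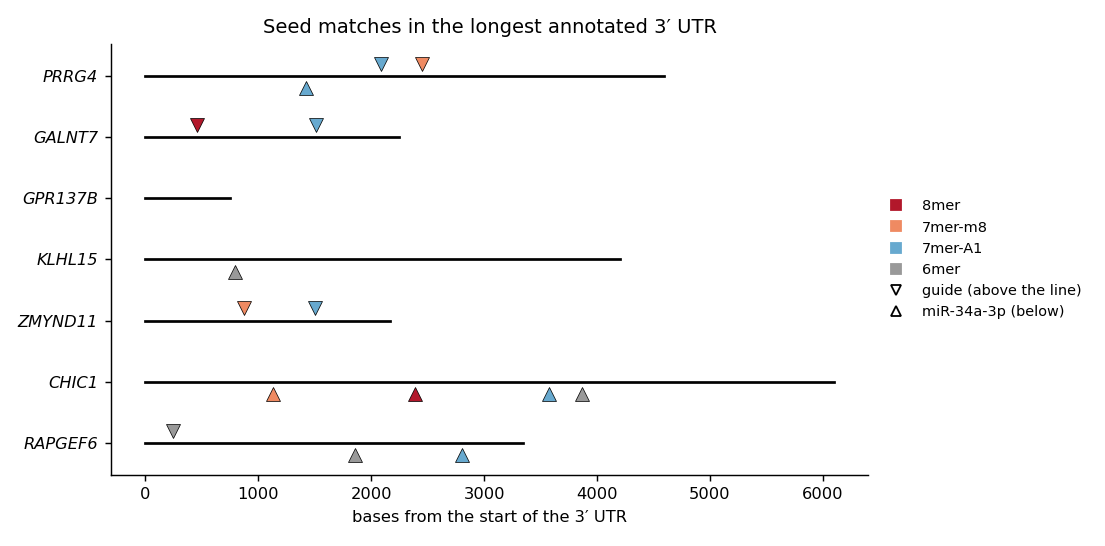
Seed matches along the longest annotated 3′ UTR of each of the 7 genes, with the distance in bases from the start of the 3′ UTR on the horizontal axis. Triangles above a line are matches to the guide and triangles below are matches to miR-34a-3p, coloured by match type; the guide matches fall in 4 genes, and the 3 with a 7- or 8-base match each have 2.

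Each gene was tested against control in 3 ways with edgeR's quasi-likelihood test, adjusted by Benjamini-Hochberg over all 18321 genes. All 9 microRNA libraries together against control is the leading test, because that mean is uncorrelated with the difference on which the genes were picked. Its p-values are still not free of the choice, which also asked for a passing p and no overlap. Both favour genes with a small spread between libraries, and that spread enters the SE and p of all 3 comparisons. The 2 single-form comparisons share the miR-34a-WT or miR-34a-RS libraries with the choice, which favours high values in the first group and low values in the second, and they share the control libraries with each other. Against control, 2 of the 7 genes fell over all 9 libraries, 2 rose and 3 did not pass, beside 23.1% of all tested genes lower and 20.3% higher. With miR-34a-WT 3 were higher and 2 lower, where 18.9% of all genes were higher and 21.3% lower. With miR-34a-RS 5 were lower and none was higher, where 18.4% of all genes were lower and 16.2% higher. The balance of higher and lower calls over all genes turned with the processing and with the genes tested. Over all 9 libraries it was 3719 higher and 4240 lower of 18321 genes, but 4601 and 3534 of the 13651 genes with a 3′ UTR once each library's trend on 3′ UTR base composition and length was removed, and 3936 and 3800 of 18321 under DESeq2. For miR-34a-WT, 3469 higher and 3904 lower became 4461 and 3292 with the trend removed and 3693 and 3524 under DESeq2, on the same numbers of genes. For miR-34a-RS, 2968 and 3378 became 3989 and 3129 and, under DESeq2, 3187 and 3075. Removing the trend also dropped the genes with no 3′ UTR, so these counts do not separate the 2 changes. With the trend kept, genes with a 3′ UTR were read in 4 equal bins, from lowest to highest G and C content. Lower calls in these bins numbered 613, 830, 1071 and 1115 over all 9 libraries, and 589, 724, 849 and 808 with miR-34a-RS. The 4 calls over all 9 libraries named below, for GALNT7, ZMYND11, KLHL15 and CHIC1, held with the trend removed and under DESeq2. In bulk RNA, fewer cells with a transcript and less of it per cell cannot be told apart.

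**Figure D2:**
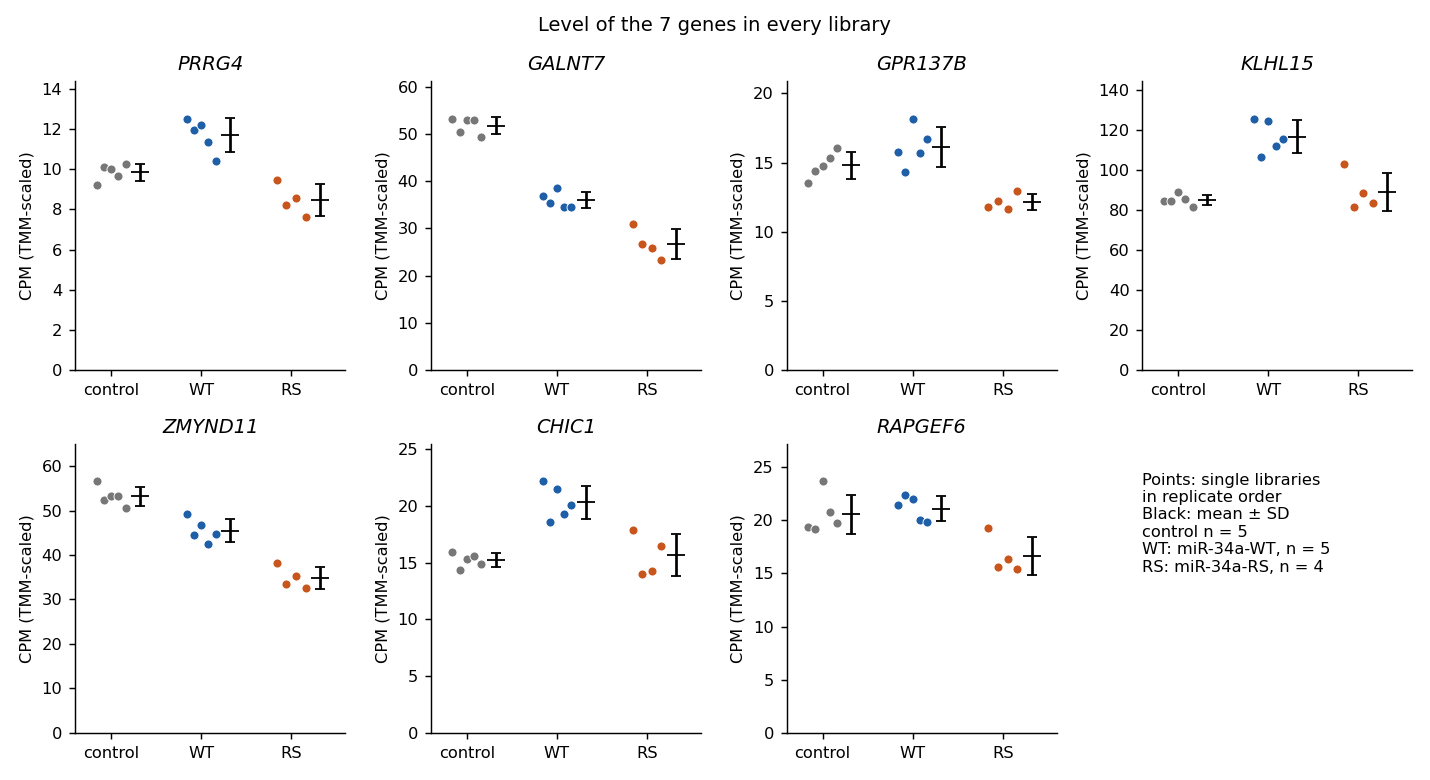
TMM-scaled CPM of the 7 genes in every library, with linear axes from 0 and a separate scale for each gene. Points are single libraries and black marks are the mean ± SD of each group (n = 5 for control and the unmodified form, n = 4 for the abasic form); the miR-34a-RS points lie below all miR-34a-WT points for each gene, as the choice required, while the place of control differs from gene to gene.

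GALNT7 and ZMYND11 fell with both forms and stood lowest with the abasic one. GALNT7 (ENSG00000109586, chr4:173168753-173323967, plus strand) adds N-acetylgalactosamine to proteins, with a preference for peptides that already carry one. It measured 53.2, 50.4, 53.0, 52.9 and 49.3 CPM in control replicates 1 to 5. With miR-34a-WT it measured 36.9, 35.4, 38.5, 34.5 and 34.5 CPM, and with miR-34a-RS 31.0, 26.7, 25.9 and 23.4 CPM in replicates 1, 2, 3 and 5. The 3 groups did not overlap, and the abasic libraries were the lowest. Over all tested genes 15.1% had every miR-34a-WT library below every control library and 14.4% had every miR-34a-RS library below. Over all 9 microRNA libraries GALNT7 fell by 0.72 on the log2 scale (SE 0.05; edgeR adjusted p = 1.28e-11). The log2 fold change was -0.53 (SE 0.06; edgeR adjusted p = 5.22e-08) with miR-34a-WT and -0.95 (SE 0.06; edgeR adjusted p = 7.54e-12) with miR-34a-RS. The level changed by -30.6% and -48.3% from control. Its 2 antisense neighbours AC105285.1 and AC097534.1, which share 98 and 394 exonic bases with it, had 10 to 27 counts per library against 803 to 1791 for GALNT7, and the library kit does not mark strand.

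ZMYND11 (ENSG00000015171, chr10:134465-254637, plus strand) binds histone H3.3 trimethylated at lysine 36 and acts in transcription elongation and splicing. It measured 56.5, 52.3, 53.2, 53.2 and 50.5 CPM in control replicates 1 to 5. The values were 49.2, 44.4, 46.8, 42.4 and 44.7 CPM with miR-34a-WT, and 38.1, 33.4, 35.3 and 32.7 CPM with miR-34a-RS. As with GALNT7, control, miR-34a-WT and miR-34a-RS formed 3 separate ranges in falling order. The fall over all 9 libraries was -0.40 on the log2 scale (SE 0.04; edgeR adjusted p = 7.08e-08). It was -0.23 (SE 0.05; edgeR adjusted p = 8.61e-04) with miR-34a-WT and -0.61 (SE 0.06; edgeR adjusted p = 2.51e-09) with miR-34a-RS, changes of -14.5% and -34.4%.

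GALNT7 and ZMYND11 both carry a 7mer-m8 or 8mer and a second, 7mer-A1 match in the 3′ UTR, as printed above. For scale, the 923 tested genes whose best match is an 8mer had a median log2 fold change of -0.20 for the unmodified form and -0.17 for the abasic form, and a median difference between the forms of -0.001. For the 1784 genes with a 7mer-m8 these medians were -0.11, -0.088 and 0.005. Both genes thus lay below the median of their match class with either form.

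KLHL15 and CHIC1, neither with a guide match, were higher with miR-34a-WT and near the control level with miR-34a-RS. KLHL15 (ENSG00000174010, chrX:23983720-24027186, minus strand) brings a regulatory subunit of protein phosphatase 2A and the DNA repair protein CtIP to the CUL3 ligase. Its level was 84.6, 84.8, 88.8, 85.7 and 81.5 CPM in control replicates 1 to 5. It was 126, 106, 124, 112 and 115 CPM with miR-34a-WT and 103, 81.6, 88.7 and 83.7 CPM with miR-34a-RS. Every miR-34a-WT library was above every control library, as in 13.8% of all tested genes. Of the 4 miR-34a-RS libraries 3 lay within the control range, and replicate 1 lay above it but below all miR-34a-WT libraries. KLHL15 rose by 0.28 on the log2 scale over all 9 libraries (SE 0.05; edgeR adjusted p = 6.16e-05) and by 0.45 with miR-34a-WT (SE 0.06; edgeR adjusted p = 4.53e-07). With miR-34a-RS the log2 fold change was 0.07 (SE 0.06; edgeR adjusted p = 0.425).

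CHIC1 (ENSG00000204116, chrX:73563200-73687102, plus strand) has the longest 3′ UTR of the 7 at 6097 bases. It measured 15.9, 14.4, 15.3, 15.6 and 14.9 CPM in control, 22.1, 18.6, 21.4, 19.2 and 20.1 CPM with miR-34a-WT and 17.9, 13.96, 14.3 and 16.4 CPM with miR-34a-RS. All miR-34a-WT libraries exceeded all control libraries, and the miR-34a-RS libraries fell on both sides of the control range. CHIC1 rose by 0.25 on the log2 scale over all 9 libraries (SE 0.06; edgeR adjusted p = 0.00158) and by 0.41 with miR-34a-WT (SE 0.07; edgeR adjusted p = 2.03e-05). The value with miR-34a-RS was 0.04 (SE 0.07; edgeR adjusted p = 0.715). The 4 matches to miR-34a-3p in its 3′ UTR thus stood beside a higher level with miR-34a-WT.

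GPR137B and RAPGEF6 did not pass with miR-34a-WT and were lower than control with miR-34a-RS. GPR137B (ENSG00000077585, chr1:236142505-236221865, plus strand) sits in the lysosomal membrane and takes part in mTORC1 signalling through Rag GTPases. It measured 13.5, 14.4, 14.8, 15.3 and 16.04 CPM in control, 15.8, 14.3, 18.2, 15.7 and 16.7 CPM with miR-34a-WT and 11.8, 12.2, 11.7 and 12.9 CPM with miR-34a-RS. The miR-34a-RS libraries were below all control libraries, and the miR-34a-WT libraries overlapped control. The log2 fold change was -0.28 with miR-34a-RS (SE 0.07; edgeR adjusted p = 0.00260), 0.13 with miR-34a-WT (SE 0.07; edgeR adjusted p = 0.128) and -0.05 over all 9 libraries (SE 0.06; edgeR adjusted p = 0.477). With miR-34a-WT it passed once replicate 2 of that group was left out (0.19, edgeR adjusted p = 0.0248). ERO1B lies on the opposite strand in the same region and shares no exonic base with GPR137B in GENCODE 29. It had 942 to 1498 counts per library against 357 to 545 for GPR137B, and the library kit does not mark strand. The annotation used for counting is not given in the sources used here, and the part of ERO1B reads in the GPR137B level was not tested.

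RAPGEF6 (ENSG00000158987, chr5:131423921-131635236, minus strand) activates Rap1 and Rap2, small GTPases of cell adhesion. It measured 19.3, 19.2, 23.7, 20.8 and 19.7 CPM in control, 21.4, 22.3, 21.97, 20.02 and 19.8 CPM with miR-34a-WT and 19.3, 15.6, 16.3 and 15.4 CPM with miR-34a-RS. Of the miR-34a-RS libraries, 3 were below all control libraries and replicate 1 lay inside the control range. Its log2 fold change was -0.30 with miR-34a-RS (SE 0.07; edgeR adjusted p = 0.00186), 0.04 with miR-34a-WT (SE 0.07; edgeR adjusted p = 0.714) and -0.12 over all 9 libraries (SE 0.06; edgeR adjusted p = 0.126). The last of these passed with the 3′ UTR trend removed, at -0.14 (edgeR adjusted p = 0.0219). RAPGEF6 shares 6112 exonic bases with AC008695.1, a gene on the same strand that had no count in any library. How reads over both were assigned is not given in the sources used here, so its level is uncertain.

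PRRG4 (ENSG00000135378, chr11:32829943-32858123, plus strand), which carries proline-rich motifs for WW-domain proteins in its cytoplasmic tail, lay on opposite sides of control with the 2 forms. It measured 9.21, 10.1, 10.01, 9.65 and 10.2 CPM in control, 12.5, 11.96, 12.2, 11.3 and 10.4 CPM with miR-34a-WT and 9.46, 8.21, 8.56 and 7.61 CPM with miR-34a-RS. All miR-34a-WT libraries were above all control libraries, and miR-34a-RS replicate 1 was above the lowest control library. PRRG4 rose by 0.25 on the log2 scale with miR-34a-WT (SE 0.07; edgeR adjusted p = 0.00643) and fell by 0.22 with miR-34a-RS (SE 0.08; edgeR adjusted p = 0.0276). Over all 9 libraries its log2 fold change was 0.04 (SE 0.06; edgeR adjusted p = 0.647). The miR-34a-RS call was lost in 5 of 24 other settings, among them without replicate 5 of that group (-0.17, edgeR adjusted p = 0.117) and with no filter on low counts (-0.19, edgeR adjusted p = 0.118). Only 2 of the 18321 tested genes were called higher with miR-34a-WT and lower with miR-34a-RS, and the other was BMAL2, a circadian transcription factor gene, at 0.17 (SE 0.05) and -0.14 (SE 0.05). Such opposite calls need a fall between the forms, on which PRRG4 was picked. The PRRG4 values with miR-34a-WT stand beside a 7mer-m8 and a 7mer-A1 match in the 3′ UTR.

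**Figure D3:**
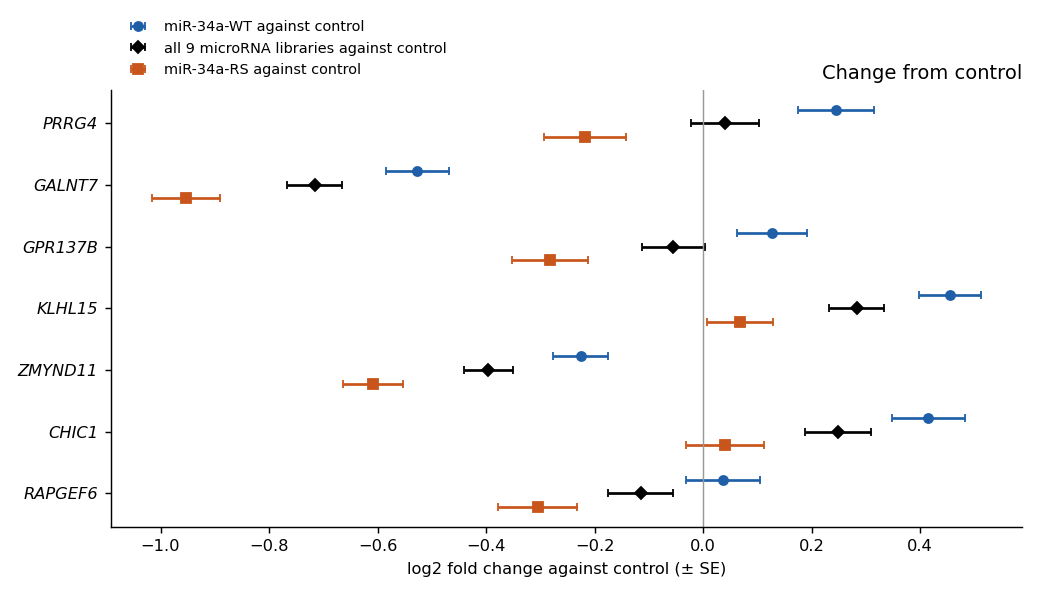
Log2 fold change of the 7 genes against control, with bars of ± SE, for miR-34a-WT (circles), all 9 microRNA libraries (diamonds) and miR-34a-RS (squares). GALNT7 and ZMYND11 lie left of 0 in all 3, KLHL15 and CHIC1 right of 0, and PRRG4, GPR137B and RAPGEF6 have their miR-34a-WT and miR-34a-RS values on opposite sides of 0.

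The difference that chose the genes ranged from -0.46 (SE 0.07) for PRRG4 to -0.34 (SE 0.07) for RAPGEF6 on the log2 scale, or -27.4% to -21.1%. GALNT7 was at -0.43 (SE 0.06), GPR137B at -0.41 (SE 0.07), KLHL15 at -0.39 (SE 0.06), ZMYND11 at -0.38 (SE 0.06) and CHIC1 at -0.37 (SE 0.07). Differences among these 7 values were not tested. In the same comparison 0.535% of all tested genes were called lower and 2.16% had every miR-34a-RS library below every miR-34a-WT library, which the choice required of the members. With the replicate number as a block, 629 genes were called lower and 625 higher in place of 98 and 188, and the members kept values of -0.47 for PRRG4 to -0.35 for RAPGEF6. With the 3′ UTR trend removed, 444 were lower and 360 higher among the 13651 genes with a 3′ UTR.

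Just outside the choice, NCEH1, which encodes a cholesteryl ester hydrolase, was at -0.34 (SE 0.07), RPS6KA5 at -0.32 (SE 0.06), RPP40 at -0.32 (SE 0.07), RAB36 at -0.32 (SE 0.07) and BMAL2 at -0.31 (SE 0.05). RAPGEF6 and NCEH1, on either side of the limit, thus had nearly the same value. LRGUK, inside the limit, was at -0.41 (SE 0.09), and its level was 9.19 ± 0.95 CPM (SD, n = 5) for the unmodified form, 6.95 ± 0.42 CPM (SD, n = 4) for the abasic form and 1.73 ± 0.27 CPM (SD, n = 5) for control. A further 391 tested genes had a fall at least as large as that of RAPGEF6, of which 388 were under 5 CPM and 6 passed the threshold, LRGUK included. The 7 genes are therefore neither the largest falls of the table nor, with LRGUK at rank 4, the 7 largest by the criteria of the choice.

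**Figure D4:**
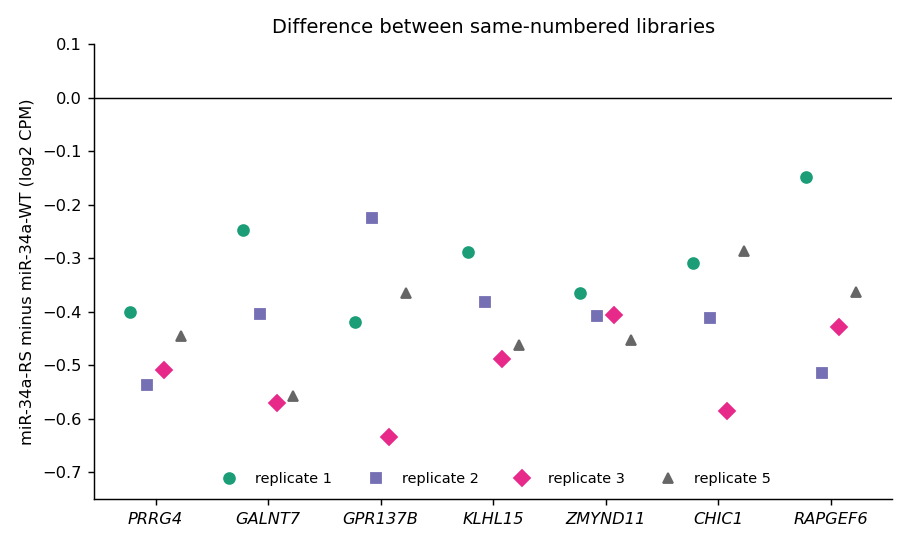
Difference in log2 CPM between the miR-34a-RS and miR-34a-WT libraries of the same replicate number, for replicates 1, 2, 3 and 5 (symbols) of each gene. All 28 differences lie below 0, which the choice of genes fixed in advance; they run from -0.63 to -0.15, and the median over the 7 genes is -0.31 in replicate 1 and -0.51 in replicate 3.

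Same-numbered libraries of the 2 microRNA groups deviated together, so the difference was also read within numbers, as a description. ZMYND11 had the most even values, from -0.45 to -0.37, and PRRG4 ran from -0.54 to -0.40. GPR137B had the widest range, from -0.63 in replicate 3 to -0.23 in replicate 2. RAPGEF6 ran from -0.52 in replicate 2 to -0.15 in replicate 1, and GALNT7 from -0.57 in replicate 3 to -0.25 in replicate 1. The libraries also moved together across genes: miR-34a-RS replicate 1 was the highest of its group for 6 of the 7 genes, and GPR137B, highest in replicate 5, was the exception. In the miR-34a-WT group replicate 1 was highest for 4 genes. Over the 21 pairs of members, Pearson's r of the deviations from group means across the 14 libraries ran from -0.25 to 0.82 with a median of 0.52, a description over points that share library and depth. Without miR-34a-RS replicate 1 the difference was larger for 6 genes, at -0.51 for PRRG4, -0.50 for GALNT7, -0.45 for KLHL15, -0.44 for CHIC1, -0.42 for ZMYND11 and -0.41 for RAPGEF6, and smaller for GPR137B at -0.39.

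Set on a scale that allows comparison between genes, CPM per kilobase of annotated exon, KLHL15 had the highest control level of the 7 at 13.6 ± 0.41 (SD, n = 5). ZMYND11 followed at 10.03 ± 0.41, GALNT7 at 7.54 ± 0.26, GPR137B at 6.41 ± 0.42, CHIC1 at 2.19 ± 0.086, RAPGEF6 at 1.85 ± 0.17 and PRRG4 at 1.78 ± 0.074 (SD, n = 5 each). RAPGEF6 and PRRG4 did not differ beyond their spread. With miR-34a-RS the order of GALNT7 and GPR137B was the reverse, at 3.90 ± 0.46 and 5.27 ± 0.25 CPM per kilobase (SD, n = 4 each). It was also the reverse with miR-34a-WT, at 5.24 ± 0.25 and 6.99 ± 0.62 CPM per kilobase (SD, n = 5 each).

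A feature that the choice did not use directly was shared by all 7 genes, a 3′ UTR poor in G and C. The share of G and C bases was 32.1% in KLHL15, 32.5% in GALNT7, 32.6% in ZMYND11, 32.7% in CHIC1, 33.0% in GPR137B, 35.1% in RAPGEF6 and 36.6% in PRRG4. The median over the 13651 tested genes with a 3′ UTR was 43.9%, and all 7 fell in the lowest of 4 equal bins, which ended at 36.8%. Lengths varied more, from 751 bases in GPR137B to 6097 in CHIC1, with 5 of the 7 above the 2167 bases of ZMYND11 and a median over all genes of 1629 bases. Base composition moved with the difference between the forms over all genes. The median log2 difference was -0.045 in the bin of lowest G and C content and 0.045 in the highest, and the genes called lower numbered 53, 29, 11 and 2 from the lowest bin to the highest. Once the dependence on 3′ UTR base composition and length was taken out of each library, the members' differences were -0.42 for PRRG4, -0.38 for GALNT7, -0.37 for GPR137B, -0.34 for ZMYND11, -0.33 for KLHL15, -0.32 for CHIC1 and -0.30 for RAPGEF6. All 7 were closer to 0 than before, a shift that removing a trend negative at low G and C content favours.

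**Figure D5:**
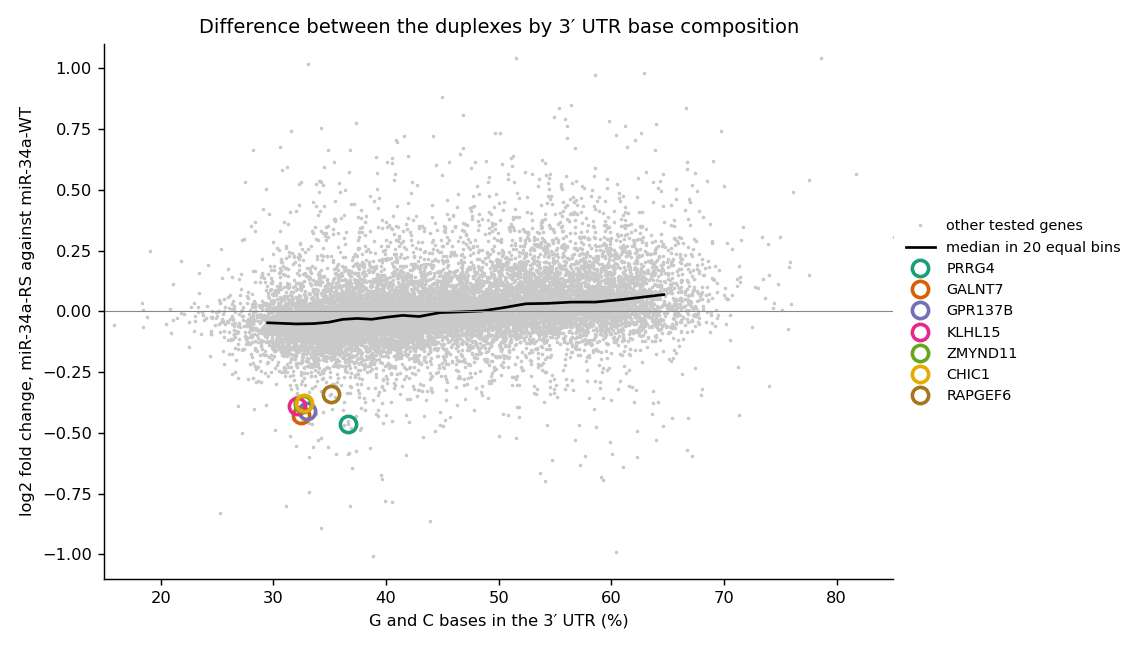
Log2 fold change of miR-34a-RS against miR-34a-WT by the share of G and C bases in the 3′ UTR, for tested genes (grey), with the median in 20 bins of equal size (black line) and the 7 genes as coloured circles; 6 genes lie outside the plotted range. The 7 genes sit together at 32.1% to 36.6%, below the black line, which is higher at its right end than at its left.

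The partners of each member were followed in 7 lists of family and pathway genes, 171 genes of which 153 were tested. Over all 9 microRNA libraries 39 of them (25.5%) rose and 50 (32.7%) fell, beside 20.3% and 23.1% of all tested genes, the shares against which each list is read. The median log2 fold change of the 153 was -0.016 beside -0.018 for all tested genes. Between the forms 2 were higher and 2 lower with miR-34a-RS, where 1.03% and 0.535% of all genes were called, and the median difference was -0.021 beside -0.003 for all genes.

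Of 20 tested genes of mucin-type O-glycosylation around GALNT7, 10 of the 20 fell over all 9 libraries and 1 rose (median -0.16), beside 23.1% and 20.3% of all tested genes. ST3GAL1, a sialyltransferase gene of O-glycans, fell by 0.72 on the log2 scale (SE 0.07), and the transferase genes GALNT16 and GALNT18 fell by 0.52 (SE 0.05) and 0.37 (SE 0.07). None of the 20 was called between the forms, and the nearest were GALNT3 at -0.24 (SE 0.11; edgeR adjusted p = 0.389) and C1GALT1, the core 1 synthase gene, at -0.10 (SE 0.06; edgeR adjusted p = 0.479). Of 23 tested writers, erasers and readers of histone H3 lysine 36 methylation around ZMYND11, 11 (47.8%) rose and 5 (21.7%) fell (median 0.085). MTF2 and PHF19, which encode Polycomb accessory proteins, changed by 0.74 (SE 0.04) and -0.50 (SE 0.04), and ZMYND8 by 0.36 (SE 0.04). MORF4L1, a chromodomain protein gene, was the 1 gene of this list called lower for the abasic than the unmodified form, at -0.20 (SE 0.05; edgeR adjusted p = 0.0299), and ASH1L was at -0.14 (SE 0.06; edgeR adjusted p = 0.313).

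Of 26 tested CUL3 adaptor and protein phosphatase 2A genes around KLHL15, 11 (42.3%) rose and 7 (26.9%) fell (median 0.057). RBX1, the RING subunit gene of cullin ligases, rose by 0.60 (SE 0.05), the adaptor gene KLHL20 rose by 0.42 (SE 0.04) and KLHL18 fell by 0.28 (SE 0.04). KLHL12, another adaptor gene, was higher for the abasic than the unmodified form by 0.29 (SE 0.05; edgeR adjusted p = 5.69e-04), the opposite direction to KLHL15, and KLHL20 was at -0.14 (SE 0.05; edgeR adjusted p = 0.183). Of 23 tested genes in the list of CHIC2 and protein palmitoyltransferases, chosen because cysteine-rich proteins of this kind are palmitoylated, 10 (43.5%) fell and 5 (21.7%) rose (median -0.082). ZDHHC16 was at -0.81 (SE 0.04), ZDHHC18 at -0.77 (SE 0.04) and ZDHHC11 at -1.04 (SE 0.07), all 3 lower by the test, and ZDHHC11 has a near-identical copy, so its count is uncertain. Between the forms none of this list was called, with ZDHHC11 at 0.24 (SE 0.09; edgeR adjusted p = 0.270) and ZDHHC23 at -0.18 (SE 0.06; edgeR adjusted p = 0.183).

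Of 24 tested genes of the GPR137 family and lysosomal mTORC1 signalling, 6 of the 24 rose and 3 (12.5%) fell (median 0.028), beside 20.3% and 23.1% of all tested genes. The Rag GTPase genes went both ways: RRAGC and RRAGD fell by 0.66 (SE 0.06) and 0.51 (SE 0.05) and RRAGA rose by 0.33 (SE 0.04) on the log2 scale. RRAGD was also lower for the abasic than the unmodified form, at -0.24 (SE 0.06; edgeR adjusted p = 0.0439), and TFE3, a transcription factor gene of lysosome biogenesis, was at 0.20 (SE 0.06; edgeR adjusted p = 0.0865). Of 28 tested genes of Rap GTPases, their regulators and effectors around RAPGEF6, 12 (42.9%) fell and 5 (17.9%) rose (median -0.10). TLN1, the talin gene, was at -0.41 (SE 0.04), the paralog RAPGEF2 at -0.43 (SE 0.05) and the Rap effector gene RASSF5 at -0.56 (SE 0.06), all 3 lower by the test. RAP1GAP, which encodes a protein that switches Rap1 off, was higher for the abasic than the unmodified form by 0.35 (SE 0.09; edgeR adjusted p = 0.0362), and SIPA1L1 was at -0.16 (SE 0.05; edgeR adjusted p = 0.144).

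Of 9 tested genes of Gla proteins and the vitamin K cycle around PRRG4, 3 (33.3%) fell and none rose (median -0.015). These were PROS1, the protein S gene, at -0.23 (SE 0.05), GAS6 at -0.27 (SE 0.09) and VKORC1, which recycles vitamin K, at -0.14 (SE 0.06; edgeR adjusted p = 0.0484). None was called between the forms. The paralog PRRG1 was at -0.18 (SE 0.07; edgeR adjusted p = 0.217) and VKORC1L1 at -0.11 (SE 0.05; edgeR adjusted p = 0.306).

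Genes were ranked by Pearson's r between their log2 CPM and the mean standardised profile of the 7 over the 14 libraries. The ranking covered 11259 genes with at least 5 CPM. The 7 did not share 1 profile, as r between members over all libraries ran from -0.15 to 0.96 with a median of 0.58. It was -0.15 for GALNT7 and KLHL15, so a gene like the mean need not be like each member. The highest were TTPAL (r = 0.95), SAR1B (0.94), FNDC3A (0.94), REEP5 (0.93), RPS6KA5 (0.93) and RNF11 (0.92). The points share library and depth, and r is a description only. SAR1B, a GTPase gene of COPII vesicles, measured 84.98 CPM on average in control, 86.4 CPM for the unmodified form and 72.3 CPM for the abasic form. TTPAL measured 66.1, 68.1 and 59.1 CPM in the same order. Its difference between the forms (-0.20, SE 0.04) was smaller than that of any of the 7, which were picked for a large one. RPS6KA5, a kinase gene, was also among those just outside the choice.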

How the data were processed

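The authors deposited whole-number counts of reads in 1 table of 63140 genes by 14 libraries, with no filter or scaling apparent from the totals. The build GRCh38 and the programs edgeR 3.42.4, Subread 2.0.3 with featureCounts, and STAR 2.7.11a are named, per the submitters' processing notes; annotation and strand setting are not given in the sources used here. Groups and replicate numbers came from the sample titles. The members, the lists of related genes and the tests were chosen with earlier results of these data known.

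Genes were tested with edgeR 4.0.16 (R 4.3.3), TMM factors, filterByExpr and robust glmQLFit and glmQLFTest over all 14 libraries in a fit of 3 group means, with an adjusted p threshold of 0.05. The contrast of all 9 microRNA libraries weighted both groups by their number of libraries. The script was tested on simulated data. CPM are TMM-scaled, and log2 CPM used a prior count of 2. 3′ UTRs are the longest of at least 20 bases in GENCODE 29, and symbols matched 18222 of the 18321 tested identifiers. No replicate pair agreed within sampling noise, with a chi-square per degree of freedom of at least 2.72.

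Named genes are the 7 members, LRGUK, the 5 next largest falls by the same criteria, from each list up to 3 genes by p against control and 2 by p between the forms at 1 CPM or more, and the 6 most alike in pattern. Same-numbered libraries of miR-34a-WT and miR-34a-RS had correlated deviations from their group means (r 0.40 to 0.78 over 9901 genes). The numbers were therefore taken as pairs, but only in the same-number differences and in the replicate block. The main fit used no pairing, so its SEs and calls between the forms leave it out. Against control the same-number r for miR-34a-WT replicates 1 to 5 was 0.60, -0.20, 0.45, 0.37 and 0.40. For miR-34a-RS replicates 1, 2, 3 and 5 they were 0.52, -0.06, 0.24 and 0.39. Because number 2 went the other way, no pairing with control was taken, though the other numbers had positive values. Libraries of different number ran from -0.64 (control 1 with miR-34a-RS replicate 3) to 0.41 (control 5 with miR-34a-RS replicate 3). Some same-number values lay below that highest value. Between the microRNA groups, miR-34a-WT replicate 4 with miR-34a-RS replicate 3 was at 0.39, beside 0.40 for number 3. Alternatives were DESeq2 1.42.0, other size factors and filters, a replicate block, only the groups compared, dispersion without the robust option, removal of the 3′ UTR trend, and each library left out.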

Additional observations from a re-analysis of the deposited data

How the results depend on the processing

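The calls of GALNT7, ZMYND11, KLHL15 and CHIC1 against control were the same in all settings run for all 3 comparisons. The values of GPR137B ran from -0.13 to -0.01 over all 9 libraries and from 0.04 to 0.19 with miR-34a-WT, where it was called without miR-34a-WT replicate 2. Those of RAPGEF6 over all 9 libraries ran from -0.14 to -0.05. The sign of the difference between the forms was fixed by the choice of members. PRRG4 lost its miR-34a-RS call in 5 settings, with adjusted p from 0.0570 to 0.118. Over all 9 libraries the members called lower were 2, and 4 with the replicate block and the 3′ UTR trend removed together, where GPR137B (-0.13) and RAPGEF6 (-0.13) also passed. Members with any guide match were 4, and 5 over all annotated 3′ UTRs. The replicate block changed no member's call, though for control its pairing did not hold at number 2.

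The count over all genes between the forms depended on the processing. In place of 188 higher and 98 lower it was 625 and 629 with the replicate block (285 of the 286 shared), 360 and 444 with the 3′ UTR trend removed and 560 and 915 with both. The settings with the trend removed tested only the 13651 genes with a 3′ UTR. The lower calls were 229 under DESeq2 and 60 with only the 2 groups compared. Leaving out 1 library gave 111 to 391 higher and 31 to 339 lower, with both highest counts without miR-34a-RS replicate 1. Lower calls were 31 without miR-34a-RS replicate 2, replicate 3 or miR-34a-WT replicate 3, 40 without miR-34a-RS replicate 5, and 52 and 62 without miR-34a-WT replicates 1 and 4. The lowest members, PRRG4 and GPR137B, rest on 228 to 545 counts per library.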

Other observations

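The 98 genes called lower for the abasic than the unmodified form split over the same patterns as the members, which are among them. Against control 27 (27.6%, beside 15.8% of all tested genes) were lower with both forms, as GALNT7 and ZMYND11 were. Another 27 (27.6%, beside 13.7%) were higher with both, a pattern that LRGUK has and none of the 7 does. A further 21 (21.4%, beside 5.20%) were called higher with miR-34a-WT and not called with miR-34a-RS, like KLHL15 and CHIC1. Another 18 (18.4%, beside 2.67%) were called lower with miR-34a-RS and not called with miR-34a-WT, like GPR137B and RAPGEF6. The remaining genes were 2 called in opposite directions and 3 (3.06%, beside 54.6%) called in neither. The choice of the 98 on the difference between the forms bears on these shares. The comparisons share control libraries, and these are counts of calls.

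In the 95 of the 98 that have a 3′ UTR, an 8mer or 7mer-m8 match to the guide was the best match in 19, beside 19.8% of all tested genes with a 3′ UTR and 39.5% of the genes called higher with miR-34a-RS. A 7mer-A1 or a 6mer was the best guide match in 14.7% and 24.2% of the 95, beside 6.70% and 12.3% of all genes. Matches to miR-34a-3p were also more frequent in the 95. The best was a 7mer-m8 in 16.8%, a 7mer-A1 in 14.7% and a 6mer in 29.5%, beside 9.67%, 7.52% and 21.5% of all genes. An 8mer to miR-34a-3p went the other way, at 1.05% beside 2.13%. The 3′ UTRs of the 95 were also longer, with a median of 2786 bases beside 1629. The part of length in these shares was not tested.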
